A study of Mus musculus with 9 samples.

Results

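The Celf and Elavl genes encode RNA-binding proteins. Their transcripts were examined in RNA-seq data from N2A cells (Neuro2A), a mouse neuroblastoma line, after siRNA depletion of EXOSC3, a structural subunit of the RNA exosome, or of DDX1, a putative RNA helicase. The 10 members, Celf1 to Celf6 and Elavl1 to Elavl4, were taken by gene symbol from the 24318 genes of each of 2 deposited tables. The scramble siRNA cells are labelled WT, the knockdowns EXOSC3 knockdown and DDX1 knockdown, and all 9 libraries, 3 per group, carry the treatment label Untreated. All groups went through transfection, and the design has no untransfected cells. A library is a separate plate of this line, so p-values measure the spread between such plates. The question was whether the paralogues of Celf4 moved with it. The study showed Celf4 as a gene with changed regions of R-loops (RNA-DNA hybrids) and a changed transcript. Since the study picked Celf4 partly on these libraries, its own change is not independent evidence, and counts are also given without it.

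Proteins of both families carry RNA recognition motifs and bind mature and precursor mRNAs. CELF proteins favour GU-rich sequence, and are known for splice site choice and for directing bound mRNAs to deadenylation and decay. ELAVL proteins (the Hu proteins) favour AU- and U-rich sequence in 3′ untranslated regions and mostly stabilize the bound mRNA or promote its translation. Celf1 and Elavl1 (HuR) are expressed in most tissues, whereas Celf3 to Celf6 and Elavl2, Elavl3 and Elavl4 (HuB, HuC and HuD) are mainly neuronal. The RNA exosome is a 3′ to 5′ ribonuclease complex that takes part in the turnover of nuclear RNAs and of mRNAs with AU-rich elements.

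The sequences shown here cover both ends of the genes, because promoters and 3′ untranslated regions are where transcripts that move together could share letters. The promoter set used here, from RefSeq on GRCm38.p6, held entries for 9 of the 10 members, all but Celf4. The 150 bases before the most upstream start are printed for Celf1, Celf3, Elavl1 and Elavl3. Capitals mark the motifs searched on both strands, namely the GC box (GGGCGG), the E-box (CAGCTG), the CRE (TGACGTCA), the CCAAT box (CCAAT) and the TATA box (TATAAA).
Celf1, chr2:90940247-90940396, plus strand: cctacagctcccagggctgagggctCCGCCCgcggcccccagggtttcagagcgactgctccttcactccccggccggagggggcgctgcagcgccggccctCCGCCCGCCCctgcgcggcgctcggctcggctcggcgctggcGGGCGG
Celf3, chr3:94478145-94478294, plus strand: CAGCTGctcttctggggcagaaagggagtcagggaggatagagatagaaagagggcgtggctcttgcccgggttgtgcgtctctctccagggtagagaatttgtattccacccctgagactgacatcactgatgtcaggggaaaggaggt
Elavl1, chr8:4325101-4325250, minus strand: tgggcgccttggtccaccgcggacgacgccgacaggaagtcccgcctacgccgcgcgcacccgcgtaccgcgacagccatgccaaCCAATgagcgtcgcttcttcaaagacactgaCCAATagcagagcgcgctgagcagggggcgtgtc
Elavl3, chr9:22052024-22052173, minus strand: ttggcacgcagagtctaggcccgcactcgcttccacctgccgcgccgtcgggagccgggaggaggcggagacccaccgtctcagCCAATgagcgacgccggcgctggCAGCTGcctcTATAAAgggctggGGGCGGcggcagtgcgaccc

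In the 250 bases before these starts, Celf1 held 4 GC boxes, Celf6 held 5 GC boxes and 1 CRE, and Celf5 held 3 GC boxes. The GC box occurred in 32.7% of all 32851 promoters of that length and the CRE in 1.55%. Elavl1 held 2 CCAAT boxes, a motif found in 33.8% of all promoters. Celf3 and Elavl3 each held an E-box, a CCAAT box and a TATA box, which occurred in 13.0%, 33.8% and 12.4% of all promoters, and Elavl3 also held 1 GC box. In Celf3 only the E-box lies within the bases printed. Further Celf3 starts, with entries from 94484077, 94484080 and 94484108, each held 1 GC box and 1 CRE. The most upstream start of Celf2 held 1 TATA box, and other Celf2 starts held up to 3 GC boxes. The most upstream starts of Elavl2 and Elavl4 held none of the 5 motifs, whereas each of the other 5 starts of Elavl2 held 1 or 3 GC boxes and 2 CCAAT boxes, and each of the other 3 of Elavl4 held 1 or 2 CCAAT boxes. Some of those Elavl4 starts also held 1 E-box. The GC content of the 300-base entries of the most upstream starts was 74.3% for Celf1, 70.0% for Elavl1 and 76.7% for Celf6, 66.3% for Celf5, 65.3% for Elavl3, 57.0% for Elavl2 and Elavl4, 55.0% for Celf3 and 46.7% for Celf2, with a median of 52.7% over all promoters. Other starts of a gene could differ, as with 80.3% at another Celf2 start. No motif was found at all 9 of the most upstream starts.

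The 3′ untranslated regions were read from the longest annotated one of each gene in GENCODE vM1 on NCBIM37, the sequence of mm9. The nonamer TTATTTATT, a core of AU-rich elements, occurred in 3 members and is shown in capitals with 9 bases on either side. The Elavl1 window is 1 of 8 overlapping or nearby matches in that gene.
Elavl1, chr8:4285751-4285777, minus strand: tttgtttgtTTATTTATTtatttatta
Elavl4, chr4:109877591-109877617, minus strand: ttgaaacacTTATTTATTtaattgcag
Celf3, chr3:94296038-94296064, plus strand: tctctactcTTATTTATTgagttttac

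Among genes whose 3′ untranslated region was within 20% of the same length, the nonamer was found in 21.0% for Elavl1, 12.2% for Elavl4 and 6.88% for Celf3. The shorter pentamer ATTTA is contained in the nonamer. Elavl2 held 15 pentamers, or 6.06 per kb, a density reached by 0.401% of genes of like length. Celf4 had 3.77 per kb (8 pentamers, a density reached by 8.01% of genes of like length), Elavl1 3.74, Elavl4 3.45 and Elavl3 2.29, where medians of genes of like length lay between 1.44 and 1.59. Celf1 and Celf2 had 1.63 per kb, Celf3 0.935 and Celf5 0.323, and no pentamer was found in the 2249 bases of Celf6. The Celf genes thus ran from 0 to 3.77 per kb, and Celf4 lay among the Elavl genes. The GU-rich heptamer TGTTTGT occurred 4 times in Celf2, 3 times in each of Celf1, Elavl1 and Elavl4, 2 times in Celf5 and 1 time in Elavl2, and was not found in Celf3, Celf4, Celf6 or Elavl3. It is a common word, present in 81.4% of genes of like length for Celf2, 79.6% for Celf1, 65.5% for Elavl1, 52.3% for Celf5, 46.2% for Elavl4 and 44.7% for Elavl2.

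The encoded proteins, translated from the longest intact coding sequence of the same annotation, fell into clear subgroups. Elavl2 and Elavl4 were 88.9% identical over aligned residues, Elavl3 was 82.2% identical to each, and Elavl1 shared 73.9% with Elavl2. Celf1 and Celf2 were 78.5% identical. Celf4 was 75.0% identical to Celf3 and 71.1% to Celf6, 64.9% to Celf5, and 49.8% to Celf1. Between a Celf and an Elavl protein the identity was at most 35.4%. Each of the 4 Elavl proteins held 3 matches to the core of the RNP1 motif (glycine, any residue, glycine or alanine, phenylalanine, valine or isoleucine), and each of the 6 Celf proteins held 1. The pattern is strict, and its matches are not a count of RNA recognition motifs.

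The depletions were visible in the targeted transcripts. Exosc3 stood at 45.8, 43.8 and 42.7 FPKM (fragments per kilobase of transcript scaled to sequencing depth, the deposited unit) in scramble cells and at 6.84, 7.68 and 6.01 in siEXOSC3 cells. Ddx1 stood at 130, 126 and 119 FPKM in scramble cells and at 28.0, 28.7 and 34.8 in siDDX1 cells. Depth relative to the first scramble library ranged from 0.828 to 1.20, and absolute depth is unknown. In scramble cells the 12 neuroblastoma and neuron markers summed to between 754 and 793 FPKM with Dcx, Nefl and Nefm under the level tested. The 15 markers of other cell types summed to between 8.29 and 9.76 FPKM in scramble cells, with Aqp4, Col1a2, Lum and Ptprc at 0. The deposited tables hold the same 3 scramble libraries with values about 1.01 times higher in the siEXOSC3 table, so every comparison stayed within a table.

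In scramble cells the members covered a wide range of levels, and FPKM is a value per length, so genes can be set side by side. Elavl1 was highest at 73.7 ± 1.63 FPKM (SD, n = 3), followed by Celf1 at 48.4 ± 0.912. Elavl2 (30.2 ± 2.26) and Elavl4 (29.9 ± 1.01) overlapped, and Elavl3 followed at 22.6 ± 0.928. Celf3 (15.5 ± 1.59) and Celf4 (14.6 ± 2.44) overlapped as well. Celf6 at 4.20 ± 0.180 and Celf5 at 2.79 ± 0.216 were the lowest measured members. Celf2, which lies on chromosome 2 at 6460751 to 7002348 in mm9, was listed at exactly 0 in all 12 columns. It was not tested, and no fold is given. Since 4337 of 19476 protein-coding symbols were also listed at 0 throughout, including 1 of 79 cytosolic ribosomal protein symbols, the entry says only how Celf2 is listed.

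**Figure D1:**
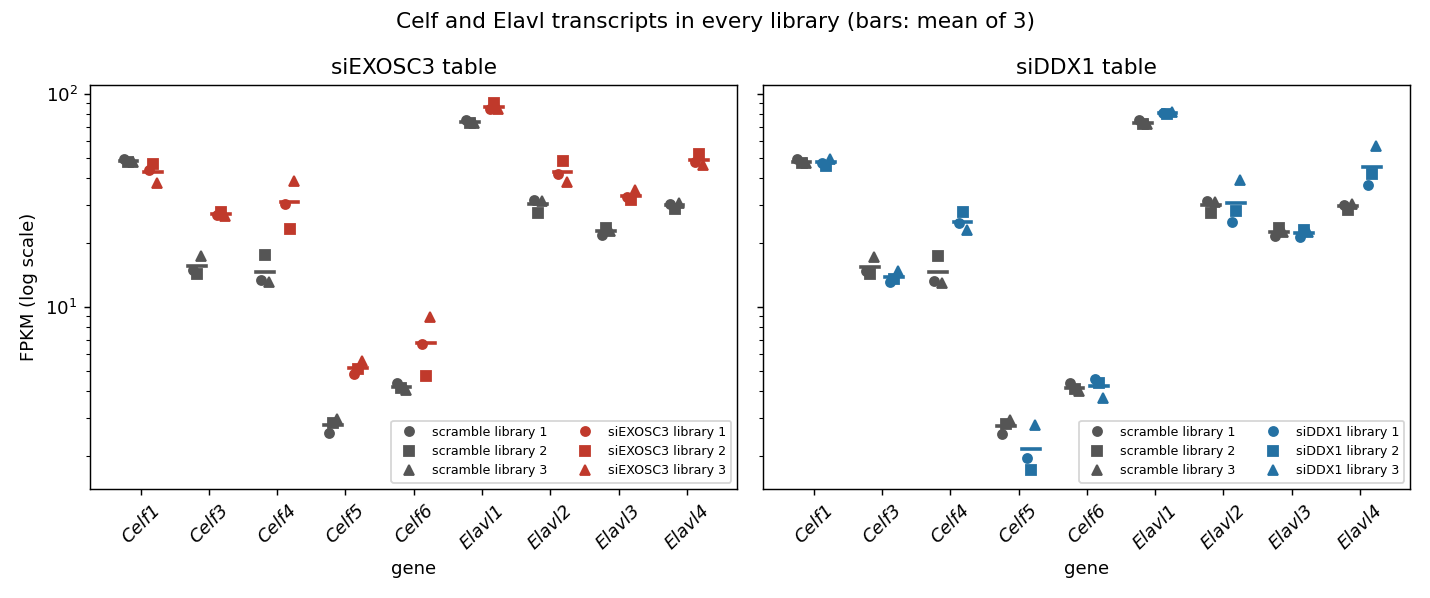
FPKM of the 9 measured members on a log axis, with the siEXOSC3 table on the left and the siDDX1 table on the right. Each point is a library (circle, square and triangle for libraries 1, 2 and 3), grey for scramble and coloured for the knockdown, and each bar is the mean of 3. All members but Celf1 had their 3 points above scramble in siEXOSC3 cells, whereas in siDDX1 cells only Celf4, Elavl1 and Elavl4 had all 3 points above.

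Upon depletion of EXOSC3, 8 of the 9 members tested increased and none decreased, and Celf1 did not pass the test. No member had a lower level with an unadjusted p under 0.05 in either knockdown. The share of all genes at that unadjusted cut is not given here. The test was limma on log2(FPKM + 1) over the 11242 genes that averaged 1 FPKM or more in the 6 libraries, with Benjamini-Hochberg adjusted p under 0.05. Over all genes tested, 16.7% increased and 15.7% decreased. Without Celf4, 7 of 8 increased. The same 8 members had all 3 siEXOSC3 values above all 3 scramble values, which held for 23.8% of all genes, and Celf1 had all 3 below, as did 25.9% of all genes. The median log2 fold change of the 9 members was 0.54, against -0.01 over all genes. With 3 libraries against 3 the exact permutation test cannot go below p = 0.1, so the adjusted p-values rest on the spread that limma shares across genes. A log2 fold change of FPKM + 1 understates the change of the low genes Celf5 and Celf6.

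Celf4, a splicing and stability regulator that spans 276 kb of chromosome 18 (25636133 to 25912484 in mm9), changed most. It stood at 13.4, 17.4 and 13.0 FPKM in scramble cells and at 30.4, 23.3 and 39.0 in siEXOSC3 cells. The groups did not overlap, although the second scramble library was the highest of its group and the second siEXOSC3 library the lowest. The log2 fold change was 1.01 (SE 0.178, adjusted p = 0.00543 by limma), and 1.06% of all genes tested had a larger one.

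Celf3, the closest relative of Celf4 by protein identity and also a splicing regulator of neurons, stood at 14.9, 14.3 and 17.3 FPKM in scramble cells and at 26.9, 27.7 and 26.8 in siEXOSC3 cells. The knockdown libraries were nearly level and far above the control range. It rose by 0.77 on the log2 scale (SE 0.0809, adjusted p = 9.32e-04 by limma). Celf3 is a compact gene of 13.4 kb on chromosome 3.

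Celf5 stood at 2.56, 2.84 and 2.98 FPKM in scramble cells and at 4.84, 5.11 and 5.55 in siEXOSC3 cells. The change was 0.70 on the log2 scale (SE 0.0923, adjusted p = 0.00210 by limma). The antisense transcript Gm16105 shares 543 exonic bases with Celf5 and has no row in the tables, like the other genes that overlap a member. The library kit did not keep strand, so reads of the pair cannot be told apart. Celf6 stood at 4.41, 4.13 and 4.07 FPKM in scramble cells and at 6.65, 4.71 and 8.98 in siEXOSC3 cells. Its knockdown libraries were spread widely and in the same order as those of Celf4, the third library being highest and the second lowest. Celf6 rose by 0.54 on the log2 scale (SE 0.177, adjusted p = 0.0460 by limma), and the call was lost in 9 of 13 alternatives, where the adjusted p reached 0.127. Without siEXOSC3 replicate 3 its log2 fold change was 0.35 (adjusted p = 0.0717 by limma).

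Celf1, which recruits deadenylation to GU-rich mRNAs, stood at 49.5, 47.8 and 48.0 FPKM in scramble cells and at 43.7, 46.8 and 38.1 in siEXOSC3 cells. All 3 knockdown values lay below the controls. The log2 fold change was -0.18 (SE 0.0815), with a 95% interval from -0.36 to 0.01 and an adjusted p of 0.126 by limma. The value rested on single libraries, being -0.24 (adjusted p = 0.0314) without siEXOSC3 replicate 2 and -0.10 (adjusted p = 0.272 by limma) without siEXOSC3 replicate 3. Thus the most abundant Celf transcript did not rise with the other 4, and its share of the summed Celf FPKM went from 56.6 ± 1.63% (SD, n = 3) in scramble cells to 38.2 ± 5.69% in siEXOSC3 cells. That of Celf4 went from 17.1 ± 2.68% to 27.2 ± 5.67%. The groups did not overlap in either share (exact permutation p = 0.1, the smallest possible).

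All 4 Elavl transcripts increased upon depletion of EXOSC3, the 3 neuronal ones by more than Elavl1. Elavl4, which stabilizes mRNAs of growing neurites, stood at 30.4, 28.7 and 30.5 FPKM in scramble cells and at 47.9, 52.2 and 46.1 in siEXOSC3 cells. It rose by 0.69 on the log2 scale (SE 0.0692, adjusted p = 8.35e-04 by limma). Elavl3, a marker of postmitotic neurons, stood at 21.6, 23.5 and 22.6 FPKM in scramble cells and at 32.6, 31.6 and 35.2 in siEXOSC3 cells. Its log2 fold change was 0.53 (SE 0.0693, adjusted p = 0.00199 by limma). Elavl2 stood at 31.6, 27.6 and 31.4 FPKM in scramble cells and at 41.9, 48.1 and 38.3 in siEXOSC3 cells. Its log2 fold change was 0.48 (SE 0.0957, adjusted p = 0.00817 by limma). In each of the 3 genes the groups were apart. In mm9 Elavl2 (90917454 to 91066675) and Elavl4 (109876327 to 110024514) both lie on chromosome 4, and Elavl3 (21819449 to 21856467) on chromosome 9. Within the siEXOSC3 libraries Elavl2 and Elavl4 were both highest in the second and lowest in the third, the reverse of Celf4 and Celf6.

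Elavl1, the widely expressed member that stabilizes AU-rich mRNAs, stood at 75.5, 72.7 and 72.7 FPKM in scramble cells and at 84.8, 90.1 and 84.7 in siEXOSC3 cells. The groups did not overlap, but the difference was small. The log2 fold change was 0.23 (SE 0.0601, adjusted p = 0.0218 by limma). The call was lost in 5 of 13 alternatives, among them leaving out the first siEXOSC3 library or any 1 of the scramble libraries, where the adjusted p reached 0.0780. The summed Elavl FPKM went from 156 ± 3.43 (SD, n = 3) to 211 ± 9.49, and the share of Elavl1 in it from 47.1 ± 0.776% to 41.0 ± 0.434%.

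**Figure D2:**
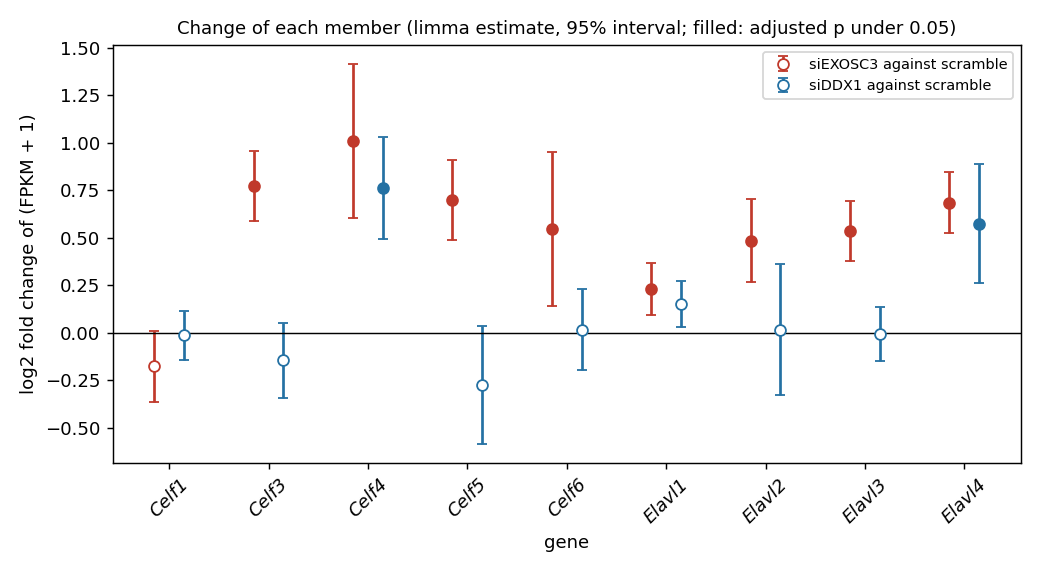
Log2 fold change of FPKM + 1 of the 9 measured members against scramble, red for siEXOSC3 and blue for siDDX1. Points are limma estimates, bars are 95% intervals and filled points passed an adjusted p of 0.05. All red points but that of Celf1 are filled and above 0, and the filled blue points are Celf4 at 0.76 and Elavl4 at 0.58.

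Upon depletion of DDX1, Celf4 and Elavl4 increased, no member decreased, and 7 of the 9 tested did not pass. Over the 11104 genes tested, 5.61% increased and 5.03% decreased. Without Celf4, 1 of 8 increased. Celf4, Elavl1 and Elavl4 had all 3 siDDX1 values above scramble, which held for 17.0% of all genes, and no member had all 3 below, which held for 17.8%. The median log2 fold change of the members was 0.02, against -5.87e-04 over all genes.

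Celf4 stood at 13.3, 17.3 and 12.9 FPKM in scramble cells and at 24.6, 27.7 and 23.0 in siDDX1 cells. Every siDDX1 library lay above the control range. It rose by 0.76 on the log2 scale (SE 0.117, adjusted p = 0.00987 by limma), and 0.522% of all genes had a larger one. Without the first or the third scramble library the adjusted p was 0.0598 and 0.0544. Elavl4 stood at 30.1, 28.5 and 30.2 FPKM in scramble cells and at 37.1, 41.9 and 57.0 in siDDX1 cells. All 3 siDDX1 libraries were above the controls, the third library by the most. Its log2 fold change was 0.58 (SE 0.137, adjusted p = 0.0361 by limma), and the call was lost in 5 of 13 alternatives, where the adjusted p reached 0.121.

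The nearest relatives of these genes did not pass the test in siDDX1 cells. Celf3 stood at 14.7, 14.2 and 17.1 FPKM in scramble cells and at 13.1, 13.5 and 14.7 in siDDX1 cells, overlapping ranges with a log2 fold change of -0.14 (95% interval -0.34 to 0.05, adjusted p = 0.293 by limma). Without scramble replicate 3 it was -0.07. Celf5 stood at 2.54, 2.82 and 2.95 FPKM in scramble cells and at 1.95, 1.70 and 2.79 in siDDX1 cells. The third siDDX1 library fell within the control range and the others below it. For Celf5 the log2 fold change was -0.27 (95% interval -0.58 to 0.04, adjusted p = 0.215 by limma), and without that library it was -0.41 with an adjusted p of 0.0174. Without siDDX1 replicate 2 it was -0.17 with an adjusted p of 0.4997. Celf6 and Celf1 had log2 fold changes of 0.02 and -0.01, with 95% intervals from -0.20 to 0.23 and from -0.14 to 0.12.

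Elavl1 stood at 75.0, 72.1 and 71.9 FPKM in scramble cells and at 81.1, 80.6 and 82.3 in siDDX1 cells. The groups did not overlap, yet the log2 fold change of 0.15 (SE 0.0527) missed the threshold with an adjusted p of 0.0950 by limma. Elavl2 stood at 31.4, 27.4 and 31.1 FPKM in scramble cells and at 24.9, 28.1 and 39.5 in siDDX1 cells. The third siDDX1 library was the highest, as for Elavl4, and the other two lay at or under the controls. Elavl2 had a log2 fold change of 0.02 with a wide 95% interval from -0.33 to 0.36. Elavl3 had a log2 fold change of -0.01, with an interval from -0.15 to 0.14. The summed Elavl FPKM was 155 ± 3.33 (SD, n = 3) in scramble and 180 ± 19.1 in siDDX1 cells, and Elavl4 made up 19.1 ± 0.295% and 25.0 ± 2.99% of it. The 2 knockdowns have their scramble libraries in common, and no test compared one knockdown with the other, so their values stand side by side only.

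Whether a paralogue moved as much as Celf4 was measured within each library, as the log2 ratio of its FPKM + 1 to that of Celf4. All 8 ratios carry the change of Celf4 itself, which the study picked partly on these libraries, so they are given as a description with no p. A lower ratio with no overlap between the groups was found for 88.8% of all genes tested in siEXOSC3 cells and for 89.8% in siDDX1 cells, and it says little about a single member. In siEXOSC3 cells the ratio of Celf1 to Celf4 was lower than in scramble cells by a mean of -1.19 on the log2 scale, that of Elavl1 by -0.78 and that of Celf6 by -0.47, each with no overlap between the groups. For Celf3 the difference was -0.24, for Celf5 -0.31, for Elavl4 -0.33, for Elavl3 -0.48 and for Elavl2 -0.53, and these 5 overlapped the scramble range. The overlap does not show that they moved as much as Celf4, because the ratios of single siEXOSC3 libraries to the scramble mean ran from -0.61 to 0.16 for Celf3 alone. The Celf6 ratio had the smallest spread among the siEXOSC3 libraries, an SD of 0.0419, as Celf6 followed Celf4 across those libraries. In scramble cells its SD was 0.235. Several of these values rested on single libraries. Without siEXOSC3 replicate 2 and without siEXOSC3 replicate 3 the difference was -0.44 and -0.05 for Celf3, -0.49 and -0.18 for Celf5, -0.80 and -0.27 for Elavl2, and -0.56 and -0.11 for Elavl4. Without scramble replicate 2 or 3 that of Celf3 was -0.41 or -0.09, and without scramble replicate 3 that of Celf5 was -0.20. With 0.1 added in place of 1, that of Celf5 was -0.19.

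In siDDX1 cells the ratio to Celf4 was lower with no overlap for 6 of the 8, namely Celf1 (-0.77), Celf3 (-0.91), Celf5 (-1.03), Celf6 (-0.74), Elavl1 (-0.61) and Elavl3 (-0.77). For Celf1, Celf6 and Elavl3, whose own log2 fold changes were near 0, these values restate the 0.76 of Celf4. Elavl2 (-0.74) and Elavl4 (-0.18) overlapped. The value of Elavl4 was -0.07 without siDDX1 replicate 1 or 2, -0.42 without siDDX1 replicate 3, and -0.12, -0.34 and -0.10 without scramble replicate 1, 2 and 3. With all libraries Elavl4 was the member whose mean ratio to Celf4 was nearest to that of scramble cells, and Celf5 the member farthest from it.

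**Figure D3:**
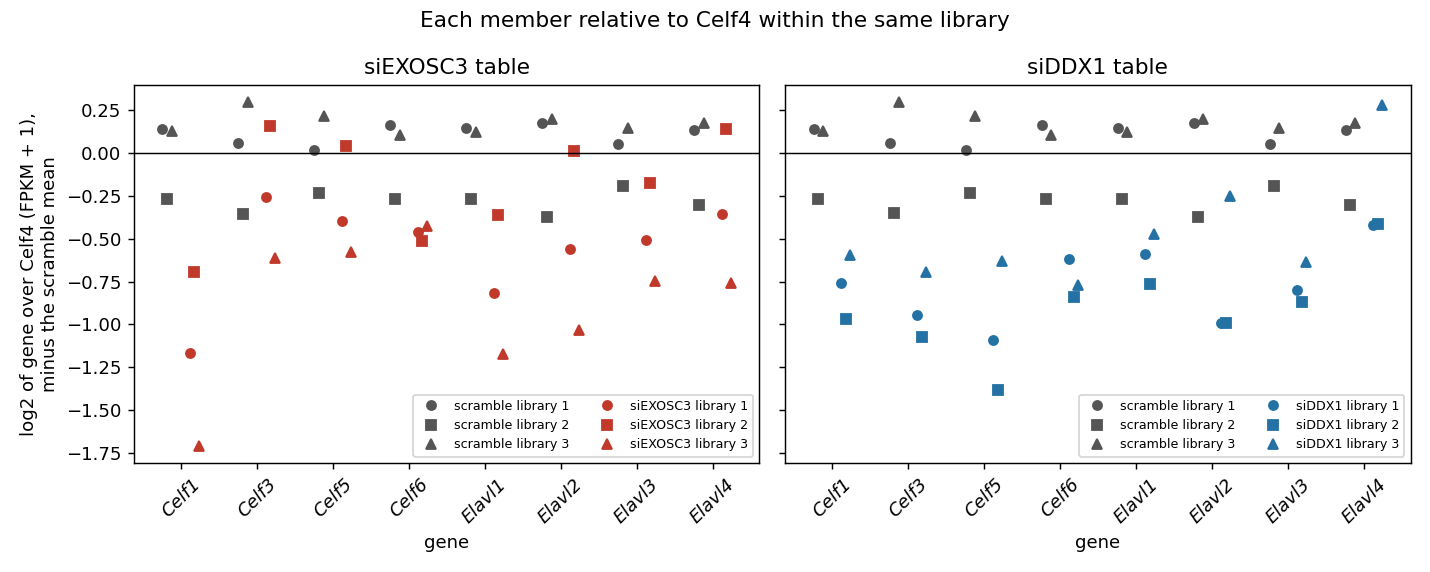
Log2 ratio of each member to Celf4 within a library (FPKM + 1), after subtracting the mean scramble ratio, with the siEXOSC3 table on the left and the siDDX1 table on the right. Points are libraries with the symbols of the plot of FPKM. In siDDX1 cells the points of Celf3 lie between -1.08 and -0.69, below all scramble points, whereas in siEXOSC3 cells they run from -0.61 to 0.16 and overlap them.

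The genes whose log2(FPKM + 1) was most like that of Celf4, by the smaller of the Pearson r over the 6 libraries of each table, were Bsn, Slc29a4, Chchd10, Gnas and Kalrn, with r from 0.994 down to 0.988 among 11053 genes. The tables share the scramble libraries, and the values are a description. Bsn encodes a scaffold of the presynaptic active zone, Kalrn a guanine nucleotide exchange factor of dendritic spines, and Gnas the stimulatory G protein alpha subunit. The members ranked far lower, with Elavl1 at rank 1041 (r = 0.769) and Elavl4 at rank 1312 (r = 0.706). Over the siEXOSC3 table alone r was 0.963 for Elavl3, 0.919 for Celf6, 0.918 for Celf5, 0.837 for Celf3, 0.817 for Elavl4, 0.769 for Elavl1, 0.636 for Elavl2 and -0.91 for Celf1. Over the siDDX1 table r was 0.854 for Elavl1, 0.706 for Elavl4, 0.186 for Celf6, 0.175 for Elavl3, -0.16 for Elavl2, -0.39 for Celf1, -0.73 for Celf5 and -0.78 for Celf3.

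Other factors of mRNA decay and splicing gave a background for the members, each a list of genes set by textbook role. Over all genes tested, the shares called higher and lower were 16.7% and 15.7% with siEXOSC3 and 5.61% and 5.03% with siDDX1. Of the 9 tested ARE-binding decay factors, none increased and 2 (22.2%) decreased in siEXOSC3 cells, where the list median was -0.08 on the log2 scale. They were Tial1, which represses translation of AU-rich mRNAs (-0.29, SE 0.0710, adjusted p = 0.0168), and Zfp36l2, which recruits deadenylation to them (-0.17, SE 0.0572, adjusted p = 0.0498 by limma). In siDDX1 cells 0 of the 9 passed by limma, and 0 had an unadjusted p under 0.05, a cut with no share of all genes given. The splicing factors Mbnl1 and Mbnl2, which oppose CELF proteins on several exons, passed in neither knockdown, with log2 fold changes of -0.05 and 0.12 in siEXOSC3 cells. Of 10 neuronal splicing regulators tested, 4 increased and 3 decreased in siEXOSC3 cells. Nova2 (0.56), Rbfox2 (0.41) and Msi1 (0.34) were among the former and Qk (-0.64) among the latter. In siDDX1 cells Rbfox2 alone of this list passed (0.26, SE 0.0570, adjusted p = 0.0283 by limma).

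Transcripts known to be bound by these proteins changed in both directions, as did all genes. Of 20 tested Elavl target transcripts, 9 increased and 5 decreased in siEXOSC3 cells, against 16.7% and 15.7% of all genes, with a list median of 0.12. Gap43, a growth cone protein whose mRNA Elavl4 stabilizes, stood at 84.2, 83.3 and 77.0 FPKM in scramble cells and at 227, 223 and 248 in siEXOSC3 cells, so its log2 fold change came to 1.50 (SE 0.0705, adjusted p = 6.71e-05 by limma). Ache (1.92), Mapt (1.21) and Nrn1 (1.11) also increased. In siDDX1 cells 5 of the 20 increased and 2 decreased, against 5.61% and 5.03% of all genes, with Gap43 at 0.50, Mapt at 0.74, Vegfa at 0.52 and Myc at 0.48. Of 11 tested Celf target transcripts, 5 increased and 2 decreased in siEXOSC3 cells, and of 10 tested in siDDX1 cells 2 increased and 1 decreased. Among the 5, Grin1 (0.86) averaged 0.596 FPKM in scramble and 1.93 FPKM in siEXOSC3 cells, so it reached the mean of 1 FPKM only through the group where it was high, and its call is no support. In the siDDX1 table Grin1 was under that mean and was not tested. Tnnt2, a model exon of CELF splicing regulation, was lower in both, by -1.07 in siEXOSC3 and -0.53 in siDDX1 cells. Mapt, which encodes the tau protein, Mcl1 and Ptgs2 are on both lists, and Ptgs2 was not tested. Mcl1, named here after its values were seen, counts among the decreases of both lists in siEXOSC3 cells (-0.30, adjusted p = 0.0189 by limma). Jun (0.77) increased in siEXOSC3 cells, and Junb in siEXOSC3 (0.70) and siDDX1 cells (0.36). Transcript levels were measured here, and neither binding nor stability was.

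Of 9 tested neuroblastoma and neuron markers, 6 increased and 0 decreased by limma in siEXOSC3 cells, with a list median of 0.59. At an unadjusted p under 0.05, 7 were higher and 1 was lower. The share of all genes at that unadjusted cut is not given for either knockdown, so such counts have no background. Those that increased included Stmn2 (1.06), Mycn (0.86, also on the Elavl target list), Tubb3 (0.77) and Map2 (0.72). The summed FPKM of the 12 markers was between 754 and 793 in scramble and between 972 and 997 in siEXOSC3 cells. Uchl1 had the highest mean, 484 FPKM over both groups, so it weighed most in these sums. In siDDX1 cells 0 of the 9 passed by limma (1 higher and 1 lower at an unadjusted p under 0.05), the list median was -0.02, and the sums were 748 to 783 in scramble and 769 to 865 in siDDX1 cells. The 15 markers of other cell types summed to between 10.1 and 14.2 FPKM in siEXOSC3 and between 9.54 and 10.8 in siDDX1 cells, and Pecam1, an endothelial adhesion molecule, was the member that increased in siEXOSC3 cells (0.67). In bulk samples a change in the share of cells of a kind and a change in RNA per cell cannot be told apart, and the part of either in the members' change was not tested. Other genes spanning at least 100 kb, as Celf4, Elavl2 (149 kb) and Elavl4 (148 kb) do, increased in 301 of 1222 cases (24.6%) and decreased in 135 (11.05%) in siEXOSC3 cells, where all genes stood at 16.7% and 15.7%. In siDDX1 cells 100 of 1209 (8.27%) increased and 52 (4.30%) decreased, where all genes stood at 5.61% and 5.03%.

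**Figure D4:**
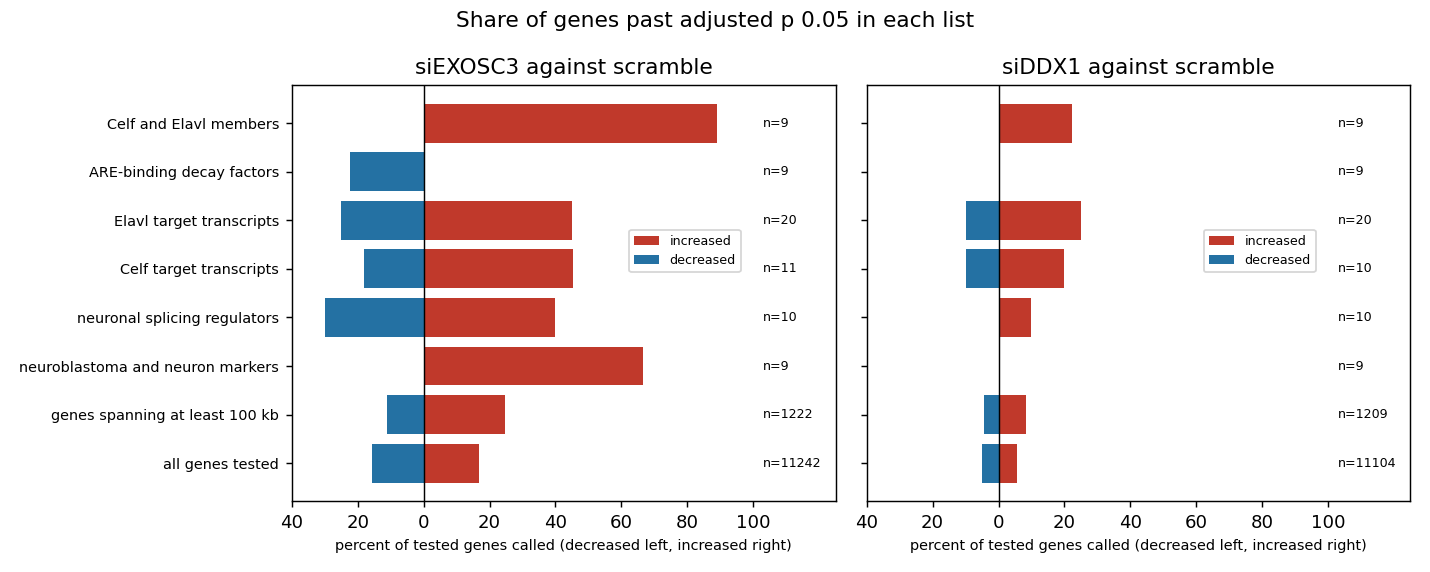
Percent of the tested genes of each list that increased (red, right of 0) or decreased (blue, left of 0) at an adjusted p under 0.05 in siEXOSC3 cells (left panel) and siDDX1 cells (right panel), with the number tested beside each bar. The members stood at 8 of 9 increased in siEXOSC3 cells, where all genes tested stood at 16.7%, and at 2 of 9 in siDDX1 cells, where all genes tested stood at 5.61%.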

How the data were processed

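RNA was rRNA-depleted, made into libraries that keep no strand and read as pairs of 150 bases. Reads were mapped by the authors with TopHat 2.1.0 (mm9), who deposited FPKM values per gene and library from Cuffdiff 2.2.1 in 2 tables of 6 columns, 1 per knockdown, both holding the same 3 scramble libraries. Which annotation and library scaling were used is not given in the sources used here, and absolute depth is unknown. DRIP-seq was left aside.

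The test of log2(FPKM + 1) was run within each table with limma 3.58.1 in R 4.3.3 (intensity trend, no covariates) over the genes averaging 1 FPKM or more, two-sided, with Benjamini-Hochberg adjustment and a threshold of 0.05. The fit was tested on simulated data: of 200 genes changed by 1 on the log2 scale, 90.5% were recovered among 11242 genes for siEXOSC3 and 89.5% among 11104 for siDDX1. The changed genes were drawn above a minimum scramble level that Celf5 did not reach. Smaller changes, as most members had, were not simulated. Ratios to Celf4 were compared by their means and ranges, and shares of a family sum by two-sided exact permutation tests. The members and gene lists were chosen with earlier results of these data known. Named genes were the targets, all members, at most 4 called genes per list and knockdown with the largest change, the 5 genes most like Celf4, and genes overlapping a member. Also given outside this rule were Mbnl1, Mbnl2, Mcl1, Ptgs2, some cell type markers and the siEXOSC3 value of Junb. Alternatives were a pseudocount of 0.1, no filter, a minimum mean of 5 FPKM, quantile normalization, median centring, no trend, a replicate block and leaving out each library. Positions and 3′ untranslated regions came from GENCODE vM1, which held all 10 members and 20775 of 24318 symbols, promoters from RefSeq, and protein alignments from Biopython 1.88 (BLOSUM62, global). Figures were drawn with matplotlib 3.10.9.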

Additional observations from a re-analysis of the deposited data

Results flagged for a closer look

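Celf3 stood at 175% of the scramble mean in siEXOSC3 cells and at 89.7% in siDDX1 cells. All 3 siEXOSC3 libraries lay above the scramble mean and all 3 siDDX1 libraries below it, each against the 3 scramble libraries of its own table. The difference between the knockdowns was not tested.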

How the results depend on the processing

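In siEXOSC3 cells Celf3, Celf4, Celf5, Elavl2, Elavl3 and Elavl4 passed in all alternatives that could test them (Celf5 was left out at a mean FPKM of at least 5, and Celf6 in siDDX1 cells too), and between 6 and 8 members increased when a library was left out. The members that decreased ranged from 0 to 1 in either knockdown over the leave-one-out fits, the 1 being Celf1 without siEXOSC3 replicate 2 and Celf5 without siDDX1 replicate 3. In siDDX1 cells the number increased was 1 with no filter and from 0 to 2 over the leave-one-out fits, with 0 without scramble replicate 1 or 3. The log2 fold change in siDDX1 cells changed sign for 4 members that did not pass: Celf1 (0.0122 with median centring, -0.0427 to 0.0125 leaving out a library), Celf6 (-0.0327 to 0.0898), Elavl2 (-0.17 to 0.15) and Elavl3 (0.0189 with median centring, -0.0347 to 0.0223). No ratio to Celf4 changed direction, but leaving out a library moved 5 of the 16 differences by over 1.5 times. In siEXOSC3 cells they ran from -0.44 to -0.05 for Celf3, -0.49 to -0.18 for Celf5, -0.80 to -0.27 for Elavl2 and -0.56 to -0.11 for Elavl4, and in siDDX1 cells from -0.42 to -0.07 for Elavl4.

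Replicate numbers were not shown to pair the samples. Deviations of same-numbered libraries correlated at 0.03, -0.31 and -0.13 for siEXOSC3 and -0.01, 0.38 and 0.37 for siDDX1. Whether the siDDX1 libraries were paired is unresolved. With the replicate block 6 members increased in siEXOSC3 cells (Elavl1 and Celf6 had adjusted p-values of 0.0663 and 0.0595) and 2 in siDDX1 cells.

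Over all genes, leaving out a library moved the siEXOSC3 counts from 1877 increased and 1767 decreased to between 1027 and 2379 and between 583 and 2508. It moved the siDDX1 counts from 623 and 559 to between 95 and 1818 and between 58 and 1706, lowest without a scramble library and highest without siDDX1 replicate 3. With no filter the siDDX1 counts were 387 and 330, and with the block they were 1085 and 808, against 1390 and 1059 for siEXOSC3. The share of siDDX1 calls that were increases was 52.7%, and 62.0% with median centring. For siEXOSC3 this share was 51.5%, and it fell to 47.7% with quantile normalization and 45.6% at a mean FPKM of at least 5. Without scramble replicate 1 it was 63.8%, so the balance of siEXOSC3 increases and decreases depended on the setting. The cause was not tested.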
